A study of Homo sapiens with 16 samples.

Results

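The 30 genes described here had opposite marks in a pair of NSD2 forms: a peak of H3K27me3 near a gene end in one form and not the other, and a peak of H3K4me3 near a gene end in the other and not the one. A gene was called marked where its RefSeq record had a deposited peak no more than 1 kb from one of its ends, and 19974 protein-coding genes on chromosomes 1 to 22 and X were read in this way. The pairs were F1295A and WT, D1240A and WT, and D1240A and F1295A. The criterion was met by 35 genes, of which the 30 are described and the other 5 are not. The peaks of WT, D1240A and F1295A chose the genes, so their calls in these forms are given as a description and no test was made of them.

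The samples were TKO cells, labelled as plasma cells of genotype KMS-11 WHSC1(+/-), and KMS-11 is a human multiple myeloma line. All cells share this background: the groups were cells that express unmutated NSD2 (WT), the substitution mutant D1240A or the substitution mutant F1295A, and plain TKO cells for which the labels name no form. The labels give no vector, promoter or clone for the expressed forms. Each form had 2 samples of H3K27me3, which share 1 peak list, and 1 sample of H3K4me3, 8 lists in all. No value of a single replicate could therefore be read, and the differences between lists have no replicate check. Read totals are not part of the lists, and sample depth is unknown. Of 5 plasma cell genes, IRF4, PRDM1 and XBP1 had H3K4me3 in all 4 forms, SDC1 had it in WT and F1295A with H3K27me3 in all 4, and CD38 had neither mark in any.

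H3K27me3 is written by Polycomb repressive complex 2 and lies over silent genes, where it can spread from CpG-rich starts across whole domains. H3K4me3 sits at the starts of active genes, and a start that holds both marks is called bivalent. NSD2, also named WHSC1, dimethylates H3K36, and chromatin with that mark is a poor substrate for Polycomb repressive complex 2. In t(4;14) myeloma such as the parent line KMS-11 the gene is overexpressed from the translocated allele. This describes the parent line. The TKO cells are labelled WHSC1(+/-), and the NSD2 level of the 4 groups was not measured here.

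Promoter windows from the RefSeq table of build GRCh38.p14 were printed for the 7 genes whose listed start lies inside both of the peaks that made the call, so that the DNA seen with H3K27me3 in one form and with H3K4me3 in the other can be read. Each window runs 5′ to 3′ from 250 bases before the start to 50 after it, and capitals mark CpG dinucleotides. CYP26A1 lies on the plus strand at chr10:93073225-93073524, INKA1 on the plus strand at chr3:49803011-49803310, NHERF2 on the plus strand at chr16:2026652-2026951 and PAXX on the plus strand at chr9:136992172-136992471. LHB lies on the minus strand at chr19:49017042-49017341, where the listed start is 2407 bp inside the gene record. IMPDH1 and LRP2 lie on the minus strand at chr7:128409933-128410232 and chr2:169362485-169362784.
CYP26A1: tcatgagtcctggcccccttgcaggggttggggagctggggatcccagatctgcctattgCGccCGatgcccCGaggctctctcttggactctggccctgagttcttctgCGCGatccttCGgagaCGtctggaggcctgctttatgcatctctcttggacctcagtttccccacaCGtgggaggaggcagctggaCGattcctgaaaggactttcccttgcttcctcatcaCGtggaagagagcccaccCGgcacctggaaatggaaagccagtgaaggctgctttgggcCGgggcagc
INKA1: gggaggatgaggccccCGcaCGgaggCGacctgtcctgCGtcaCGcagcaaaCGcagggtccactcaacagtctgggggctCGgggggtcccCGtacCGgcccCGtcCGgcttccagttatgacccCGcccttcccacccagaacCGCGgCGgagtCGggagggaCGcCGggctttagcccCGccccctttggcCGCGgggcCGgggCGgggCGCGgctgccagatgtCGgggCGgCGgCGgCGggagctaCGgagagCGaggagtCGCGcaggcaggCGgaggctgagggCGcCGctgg
NHERF2: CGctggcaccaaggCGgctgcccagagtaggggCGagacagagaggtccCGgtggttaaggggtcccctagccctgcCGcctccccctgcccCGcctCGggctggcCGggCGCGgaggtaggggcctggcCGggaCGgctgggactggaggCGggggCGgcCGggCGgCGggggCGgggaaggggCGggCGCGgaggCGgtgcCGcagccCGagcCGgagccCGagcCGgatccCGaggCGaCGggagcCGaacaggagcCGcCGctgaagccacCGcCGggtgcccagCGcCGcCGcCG
PAXX: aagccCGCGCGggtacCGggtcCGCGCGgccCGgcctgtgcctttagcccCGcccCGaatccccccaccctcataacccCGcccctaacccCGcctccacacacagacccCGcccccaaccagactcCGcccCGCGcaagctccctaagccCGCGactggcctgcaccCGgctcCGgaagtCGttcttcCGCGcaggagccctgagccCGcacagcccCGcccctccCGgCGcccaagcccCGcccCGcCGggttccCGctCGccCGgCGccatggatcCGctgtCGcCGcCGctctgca
LHB: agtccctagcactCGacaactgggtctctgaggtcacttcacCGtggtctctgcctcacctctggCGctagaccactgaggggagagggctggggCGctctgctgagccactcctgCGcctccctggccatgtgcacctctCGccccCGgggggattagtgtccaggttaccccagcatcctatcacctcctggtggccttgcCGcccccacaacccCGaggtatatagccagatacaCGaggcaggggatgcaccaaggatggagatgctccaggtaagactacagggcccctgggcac
IMPDH1: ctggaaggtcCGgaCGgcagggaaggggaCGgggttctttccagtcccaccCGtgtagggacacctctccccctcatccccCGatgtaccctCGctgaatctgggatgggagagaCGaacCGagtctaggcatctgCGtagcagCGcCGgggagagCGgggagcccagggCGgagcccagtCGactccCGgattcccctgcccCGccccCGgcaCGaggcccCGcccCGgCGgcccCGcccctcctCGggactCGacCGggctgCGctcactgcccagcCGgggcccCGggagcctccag
LRP2: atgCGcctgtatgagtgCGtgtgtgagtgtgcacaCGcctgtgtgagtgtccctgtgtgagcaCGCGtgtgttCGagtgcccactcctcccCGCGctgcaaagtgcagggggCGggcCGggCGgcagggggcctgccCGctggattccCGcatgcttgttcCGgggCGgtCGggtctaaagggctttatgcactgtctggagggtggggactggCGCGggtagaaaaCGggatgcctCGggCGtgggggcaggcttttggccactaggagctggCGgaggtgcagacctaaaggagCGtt
These starts differed in CpG content. PAXX held 38 CpG dinucleotides, NHERF2 39 and INKA1 37. LHB held 10 and CYP26A1 12, with IMPDH1 at 28 and LRP2 at 23.

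Across the 8 lists the genes fell into 5 patterns. In 15 genes WT carried H3K27me3, F1295A carried H3K4me3, and neither TKO nor D1240A carried a mark. They were PLEKHN1, CDHR4, INKA1, UBA7, LSMEM2, PFN3, LY6E, PAXX, CYP26A1, C11orf96, NHERF2, DPH1, ADAMTSL5, ZNF358 and C20orf204. In 8 genes TKO carried H3K27me3 as well, namely SCRT1, WASHC1, GPSM1, FADS3, BCL7C, WDR81, LHB and SAXO3. EXTL1 and PSCA held H3K27me3 in TKO, WT and D1240A and H3K4me3 in F1295A. LRP2, IMPDH1, CCDC136 and PRDM12 held both marks in WT, H3K27me3 alone in TKO and D1240A, and H3K4me3 alone in F1295A. NPAS1 was the 1 gene with H3K4me3 in D1240A, against H3K27me3 in TKO and WT and neither mark in F1295A. In chromatin from whole cultures, fewer cells with a mark and less of the mark per cell cannot be told apart.

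**Figure D1:**
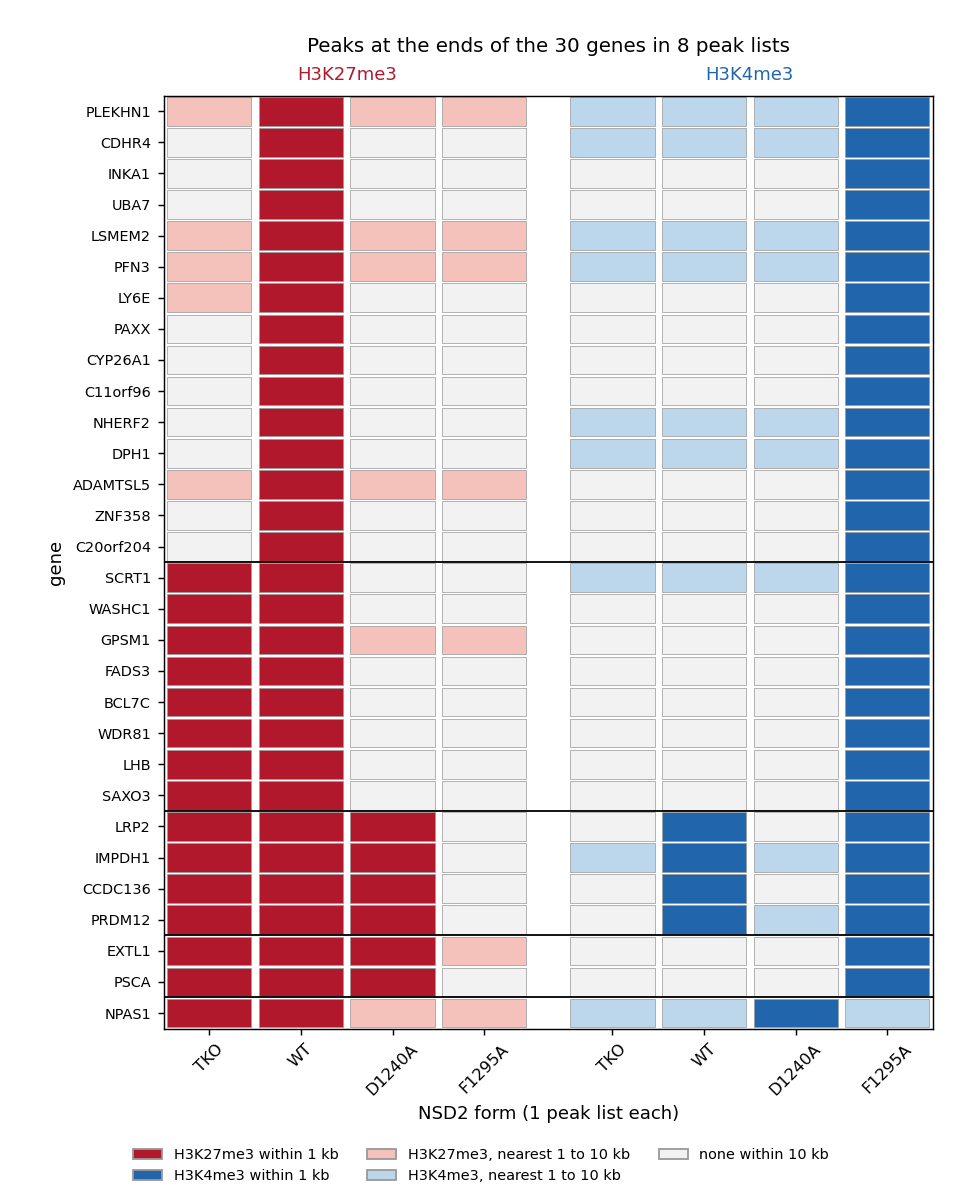
Peaks at the ends of the 30 genes (rows) in the 8 lists (columns, 4 forms for each mark). Dark cells have a peak within 1 kb of a gene end and pale cells have the nearest peak 1 to 10 kb away. Grey cells have none within 10 kb, and lines separate the 5 patterns. The F1295A column has no dark cells for H3K27me3, with 7 pale ones, and dark cells for H3K4me3 in 29 of the 30 genes.

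Opposite marks between WT and F1295A were found at 29 genes, 0.145% of all, and every one had H3K27me3 in WT and H3K4me3 in F1295A. The reverse was found at 0 genes (0.00%). The 25 genes described from this pair rested on 22 H3K27me3 peaks and 22 H3K4me3 peaks, because CDHR4, INKA1 and UBA7 share both peaks and so do LHB and SAXO3. Among all genes, 797 (3.99%) had H3K27me3 in WT and not F1295A, and 317 (1.59%) had H3K4me3 in F1295A and not WT. In 15 of the 25 the 2 peaks overlapped, by 0.421 to 9.31 kb. In PFN3 they lay 0.233 kb apart at the same end, and in 9 they lay at different ends, 0.728 to 59.9 kb apart. At those 9 genes the marks of the pair lay at separate places.

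The number of opposite calls moved with the treatment of the lists. With an equal number of peaks taken from every list of a mark, 6 genes were called for WT and F1295A, among them LSMEM2, PAXX and SCRT1 of the 25. With the stronger 50% of each list, 16 genes were called, of which LSMEM2 and SCRT1 were among the 25. The F1295A list was the longest for H3K4me3, with 8239 peaks against 8140 in WT, and the shortest for H3K27me3, with 2083 against 3790. Its H3K4me3 peaks were also wider, with a median of 3.70 kb against 3.29 kb in WT. Its H3K27me3 peaks were wider too, with a median of 12.8 kb against 9.55 kb in WT and 10.4 kb in D1240A. Together they covered 38.8 Mb, against 55.7 Mb in WT and 32.0 Mb in D1240A. A form and the length and peak width of its list cannot be told apart here.

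Enzymes were the first group. CYP26A1 encodes a cytochrome P450 that breaks down retinoic acid. Its start lay under a WT H3K27me3 peak of 3.26 kb at chr10:93071750-93075005, at percentile 17.4 of total signal in its list, where 100 is the strongest peak. F1295A had an H3K4me3 peak of 4.58 kb at chr10:93071729-93076307, percentile 8.16, which covered the whole WT H3K27me3 region. The nearest H3K27me3 peak was 344 kb away in TKO, 4429 kb in D1240A and 3307 kb in F1295A, and the nearest H3K4me3 peak of the other 3 forms was at least 223 kb away. So each mark stood alone at this gene, in 1 list of 4.

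UBA7, the activating enzyme of the ubiquitin-like protein ISG15, sat beside INKA1 on chromosome 3, with its lower end under the WT H3K27me3 peak at chr3:49796420-49806150. The F1295A H3K4me3 peak at chr3:49801610-49804210 ended 0.999 kb short of it, the call nearest to the limit of 1 kb. H3K27me3 was 44.3 kb away in TKO, 44.7 kb in D1240A and 317 kb in F1295A, and H3K4me3 was 17.8 kb, 17.3 kb and 17.2 kb away in TKO, WT and D1240A. DPH1, which takes part in the synthesis of diphthamide on elongation factor 2, had a WT H3K27me3 peak of 7.53 kb ending 0.663 kb before its start. Its F1295A H3K4me3 peak of 2.74 kb covered the start at percentile 0.388, close to the bottom of the list. In all of TKO, WT and D1240A the next H3K4me3 peak beyond DPH1 lay 8.401 kb to 9.42 kb from its end. FADS3 belongs to the fatty acid desaturase family. WT H3K27me3 of 10.7 kb and TKO H3K27me3 of 4.56 kb lay at its far end, percentiles 33.6 and 30.5, and the F1295A H3K4me3 peak of 2.21 kb lay over its start at percentile 10.2. In D1240A the nearest H3K27me3 was 37.8 kb away and the nearest H3K4me3 55.5 kb away, close to the 55.5 kb of WT.

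Genes of DNA repair, chromatin and transcription came next. PAXX is a factor of non-homologous end joining. The 12.3 kb WT H3K27me3 peak at chr9:136980422-136992758, percentile 46.7, reached 0.336 kb into the gene, and the 4.26 kb F1295A H3K4me3 peak at chr9:136991258-136995517, percentile 13.9, had its summit 0.116 kb from the start. The nearest H3K27me3 was 44.7 kb away in each of TKO, D1240A and F1295A, and the nearest H3K4me3 was 41.5 kb away in TKO, 40.1 kb in WT and 40.8 kb in D1240A. PAXX was 1 of the 3 described genes that kept the call at equal peak numbers. BCL7C encodes a subunit of SWI/SNF remodelling complexes. It is 60.5 kb long, and its marks lay at opposite ends: H3K27me3 of WT 0.979 kb and of TKO 0.585 kb beyond its far end, and a 5.29 kb H3K4me3 peak of F1295A over its start, percentile 11.8. The nearest H3K27me3 was 106 kb away in D1240A and 111 kb in F1295A, and H3K4me3 in TKO, WT and D1240A lay 16.4 kb, 16.3 kb and 16.3 kb away. The 59.9 kb between the 2 call peaks was the widest gap of the 25.

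SCRT1, a zinc finger repressor of neural cells, had the strongest pair of peaks. The WT H3K27me3 peak of 11.7 kb at chr8:144330868-144342614 was at percentile 73.9, with a highest signal of 182. The F1295A H3K4me3 peak of 15.4 kb at chr8:144324809-144340177 was at percentile 63.5 of total signal but at 0.437 of mean signal, which is total signal divided by width. It was a wide and shallow peak whose summit lay outside the gene. The other forms had an H3K4me3 peak there too, 2.37 kb wide and 2.895 kb from the gene in TKO, 2.94 kb and 2.52 kb in WT, and 5.602 kb and 2.53 kb in D1240A. DGAT1 lay under the same F1295A peak and had H3K4me3 in all 4 forms. TKO had an H3K27me3 peak 0.515 kb beyond the other end of SCRT1, percentile 19.5, and the nearest in D1240A and F1295A was 437 kb away. ZNF358, a zinc finger gene, held the weakest H3K27me3 peak of the 25. It was 2.95 kb wide over the gene start, percentile 1.93 in WT, and the F1295A H3K4me3 peak lay 0.801 kb beyond the other end at percentile 0.5705, next to MCOLN1. The nearest H3K27me3 of another form lay 55.5 kb away, and H3K4me3 lay 11.9 kb from the gene in TKO, 12.4 kb in WT and 11.8 kb in D1240A.

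Signalling genes and scaffolds made up the following group. NHERF2 encodes a PDZ scaffold that links membrane proteins to ezrin. A WT H3K27me3 peak of 5.64 kb at chr16:2024725-2030361, percentile 43.3 and highest signal 140.0, lay wholly inside the F1295A H3K4me3 peak of 8.304 kb at chr16:2022312-2030615, percentile 21.8. The H3K4me3 summit was 0.072 kb from the start, and mean signal was at percentile 0.243. The nearest H3K27me3 of another form was 101 kb away, and the strong H3K4me3 peak next to the far end of NHERF2 was 7.14 kb away in TKO, 6.52 kb in WT and 7.18 kb in D1240A.

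INKA1 encodes an inhibitor of the kinase PAK4. The whole gene lay inside the WT H3K27me3 peak of 9.73 kb at chr3:49796420-49806150, percentile 36.4, and the 2.601 kb F1295A H3K4me3 peak at chr3:49801610-49804210, percentile 8.08, had its summit 0.34 kb before the start. CDHR4, a cadherin-related gene read from the other strand, starts beside it, and its own nearest H3K4me3 in TKO, WT and D1240A lay 2.73 kb to 3.27 kb beyond its far end. For INKA1 these distances were 15.8 kb, 15.3 kb and 15.3 kb. The 3 neighbours CDHR4, INKA1 and UBA7 were thus called from 1 pair of peaks. GPSM1 encodes a modulator of heterotrimeric G proteins. WT H3K27me3 of 19.1 kb, percentile 68.3, and TKO H3K27me3 of 9.02 kb, percentile 37.3, covered its start. In D1240A and F1295A the nearest H3K27me3 lay inside the gene, 4.54 kb and 2.904 kb from its far end. The F1295A H3K4me3 peak began 0.706 kb beyond that far end at percentile 1.18, over DNLZ and CARD9. PLEKHN1 carries a pleckstrin homology domain. Its F1295A H3K4me3 peak of 4.05 kb over the start was the weakest of the 25, at percentile 0.0971, and its WT H3K27me3 peak of 5.68 kb over the far end was at percentile 5.51. H3K27me3 lay 2.20 to 2.23 kb beyond that end in the other 3 forms, and H3K4me3 lay 4.33 kb to 4.996 kb before the start in the other 3.

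LHB encodes the beta subunit of luteinizing hormone and sits beside the gonadotropin genes CGB, whose sequences are nearly identical to it, so reads here may be shared between copies. It lay with SAXO3, a microtubule gene of the axoneme, under a WT H3K27me3 peak of 6.26 kb at chr19:49016625-49022885, percentile 34.99, and a TKO peak of 8.61 kb, percentile 42.6. In F1295A an H3K4me3 peak of 4.48 kb at chr19:49015803-49020284 was at percentile 5.02. D1240A held neither mark, with the nearest H3K27me3 15.7 kb and the nearest H3K4me3 20.5 kb from LHB. RUVBL2, which has an end within 1 kb of the same peaks, carried H3K4me3 in all 4 forms.

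Genes of the cell surface and the matrix are given next. LY6E encodes a surface protein of the Ly6 family. The WT H3K27me3 peak of 8.65 kb at chr8:143010206-143018851, percentile 38.1, reached the lower end of LY6E, whereas the TKO peak of 4.53 kb stopped 3.85 kb short of it. In D1240A and F1295A the nearest H3K27me3 lay 16.1 kb away in both. In F1295A an H3K4me3 peak of 4.89 kb, percentile 6.71, lay over that end, and the nearest H3K4me3 of another form was 223 kb away. PSCA, prostate stem cell antigen, is a member of the same family on chromosome 8. It had H3K27me3 peaks of 6.47 kb in TKO, 12.3 kb in WT and 14.9 kb in D1240A, percentiles 27.8, 44.4 and 14.03. An F1295A H3K4me3 peak of 2.33 kb at chr8:142668695-142671028, percentile 1.91, lay over the other end, next to JRK. The nearest F1295A H3K27me3 was 45.2 kb away, and the nearest H3K4me3 was 43.6 kb away in TKO, 42.9 kb in WT and 43.5 kb in D1240A.

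ADAMTSL5 encodes a secreted ADAMTS-like protein. The WT H3K27me3 peak of 16.96 kb, percentile 81.3, covered its far end, and the same domain stopped 4.33 kb to 4.37 kb short of it in TKO, D1240A and F1295A. H3K4me3 of F1295A over the start, 3.23 kb wide, was at percentile 0.218. LSMEM2 encodes a small membrane protein. The WT H3K27me3 peak of 13.4 kb at chr3:50264015-50277431, percentile 78.6, ended 0.476 kb before its start. In the other forms the domain was shorter and stopped 6.12 kb before it in TKO, 5.83 kb in D1240A and 5.67 kb in F1295A. The F1295A H3K4me3 peak of 5.86 kb at chr3:50288169-50294027, percentile 58.8, began 0.055 kb beyond the far end. The peak over the neighbours IFRD2 and HYAL3 was present in TKO, WT and D1240A too, at 2.88 kb, 3.33 kb and 3.56 kb, and began 2.32 kb, 2.44 kb and 2.37 kb from LSMEM2. The call at LSMEM2 thus came from a longer domain in WT and a wider peak in F1295A, not from a peak without a counterpart.

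Genes of actin and of endosomes follow. WASHC1 encodes a subunit of the WASH complex, which drives actin assembly on endosomes, and near-identical copies of it lie at other chromosome ends, so its reads may be split. H3K27me3 covered its start in TKO, 12.1 kb at percentile 73.9, and in WT, 6.82 kb at percentile 33.5. In F1295A an H3K4me3 peak of 2.73 kb at chr9:27968-30692 was at percentile 0.328, and the peaks overlapped by 0.421 kb. The nearest H3K4me3 of WT, a form without it here, was 1983 kb away. WDR81, which acts in endosome maturation, had H3K27me3 beyond its far end in TKO and WT, 4.203 kb and 3.82 kb wide at percentiles 37.4 and 20.9. An F1295A H3K4me3 peak of 4.17 kb over the start was at percentile 8.46, with 410.1 kb to the nearest H3K27me3 in D1240A and 409.7 kb in F1295A. H3K4me3 of the other forms was 86.1 kb from WDR81 in TKO, 30.8 kb in WT and 30.9 kb in D1240A. PFN3 is a profilin, an actin-binding protein of the testis. Its WT H3K27me3 peak of 8.43 kb at chr5:177392506-177400933 was at percentile 26.9, and H3K27me3 of the other forms stopped 9.13 kb to 9.46 kb away. The F1295A H3K4me3 peak at chr5:177401167-177406324, percentile 49.8, began 0.506 kb from the gene, against 1.87 kb in TKO, 1.61 kb in WT and 1.49 kb in D1240A. Its width was 5.16 kb in F1295A, 2.73 kb in TKO, 3.46 kb in WT and 4.99 kb in D1240A. At PFN3 as at LSMEM2, a peak next to the gene was wider in F1295A.

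The open reading frames C11orf96 and C20orf204 completed the 25. C11orf96 lay whole under both a 5.42 kb H3K27me3 peak of WT at chr11:43941021-43946438, percentile 29.9, and a 4.66 kb H3K4me3 peak of F1295A at chr11:43941194-43945855, percentile 19.1. The nearest H3K27me3 was 62.98 kb away in TKO, 358 kb in D1240A and 66.6 kb in F1295A, and H3K4me3 of the other forms lay 259 kb or more away. C20orf204 had a 5.96 kb WT H3K27me3 peak at its far end, percentile 7.41, and a 5.67 kb F1295A H3K4me3 peak over its far end, percentile 8.61. H3K27me3 of TKO, D1240A and F1295A lay 40.9 kb, 47.7 kb and 57.9 kb from it, and H3K4me3 of TKO, WT and D1240A 23.1 kb, 23.4 kb and 23.03 kb.

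**Figure D2:**
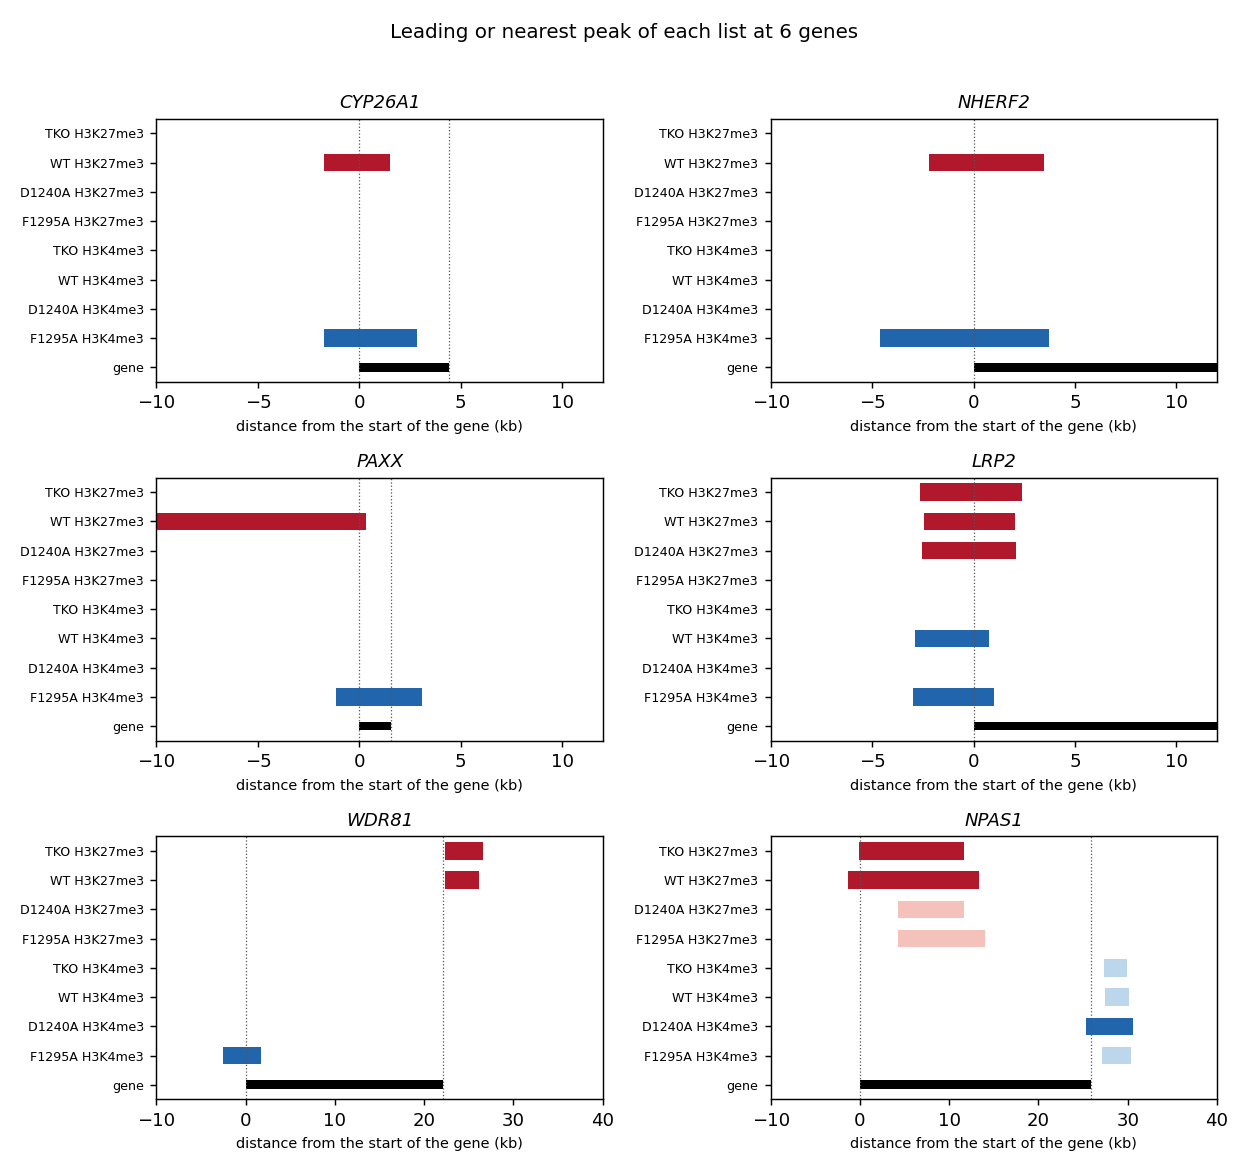
Position of the leading or, where none is within 1 kb, the nearest peak of each list at 6 genes, in kb from the gene start in the direction of transcription, with the gene as a black bar and dotted lines at its ends. Dark bars are H3K27me3 (red) or H3K4me3 (blue) peaks within 1 kb of a gene end and pale bars are nearest peaks farther off; the marks overlap at the starts of CYP26A1, NHERF2, PAXX and LRP2 and lie at different ends of WDR81 and NPAS1.

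The H3K4me3 peaks of F1295A at the 25 genes were weak within their list. Their percentiles of total signal ran from 0.0971 at PLEKHN1 to 63.5 at SCRT1, with a median of 8.08, and 22 of 25 were in the lowest 25% of the list. The other 292 genes with H3K4me3 in F1295A and not WT had a median percentile of 5.10, with 77.1% in the lowest 25%. At the 8570 genes with H3K4me3 in both forms the median was 56.9 and the share 18.9%. By mean signal 24 of 25 were in the lowest 25%, against 77.4% of the other 292 and 19.5% of the 8570. Low ranks were thus common to the F1295A-only H3K4me3 peaks inside and outside the 25. The WT H3K27me3 peaks at the same genes ran from 1.93 at ZNF358 to 93.8 at EXTL1, with a median of 36.4, against a median of 42.8 at the other 772 genes with H3K27me3 in WT and not F1295A. At the 1114 genes with H3K27me3 in both forms the median was 84.5. The 292 and the 772 each hold the 4 genes of the same call that are not described. Total signal is the authors' value per peak and was ranked only within a list.

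**Figure D3:**
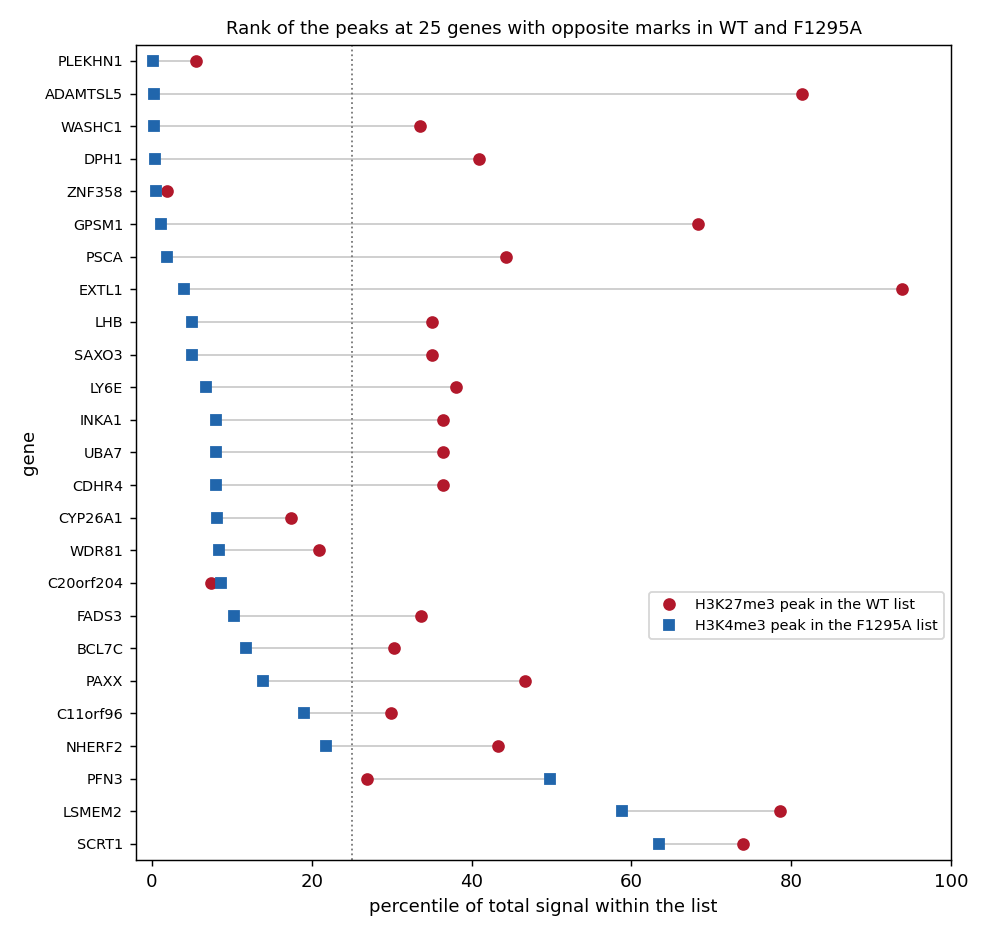
Percentile of total signal within the list (horizontal axis, 100 is the strongest) of the WT H3K27me3 peak (red circles) and the F1295A H3K4me3 peak (blue squares) at the 25 genes, with a dotted line at 25. The H3K4me3 peaks of 22 genes lie left of the line and only SCRT1 and LSMEM2 have both peaks above 50.

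For 15 of the 25 genes neither missing mark lay anywhere within 10 kb of a gene end, and these were CYP26A1, UBA7, INKA1, PAXX, FADS3, BCL7C, ZNF358, LHB, SAXO3, LY6E, PSCA, WASHC1, WDR81, C11orf96 and C20orf204. In the other 10, WT had H3K4me3 at 1 to 10 kb for 7 genes and F1295A had H3K27me3 at that distance for 6. How often other genes have a peak at that distance was not counted. The genes nearest to the limit were UBA7, with its H3K4me3 peak 999 bp away, and TMEM151A, which failed at 1072 bp and was singled out for that value alone. The member with the nearest missing mark in this pair was PFN3, 1613 bp from a WT H3K4me3 peak. With a window of 0.5 kb the pair again gave 29 genes, but 19 of the 25 were among them. With the start site end alone it gave 14 genes, 9 of them among the 25. UBA7, PFN3, PSCA, LY6E, SCRT1 and C11orf96, all among the 25, have no known strand and could not be called at that setting.

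The calls of the 2 marks were set side by side over all genes. Of 639 genes that had H3K27me3 in WT and not F1295A and no H3K4me3 in WT, 29 (4.54%) had H3K4me3 in F1295A. Of 954 genes that kept H3K27me3 in F1295A the count was 27 (2.83%), and of 9639 genes without H3K27me3 in either form it was 259 (2.69%). No test was made of these shares, since the genes were chosen by the same calls and neighbours share peaks.

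Opposite marks between D1240A and F1295A were found at 7 genes, 0.0350% of all, each with H3K27me3 in D1240A and H3K4me3 in F1295A, and the reverse at 0 (0.00%). Among all genes, 120 (0.601%) had H3K27me3 in D1240A and not F1295A, and 624 (3.12%) had H3K4me3 in F1295A and not D1240A. The 6 described were EXTL1, PSCA, LRP2, IMPDH1, CCDC136 and PRDM12, and the pair uses the same F1295A lists as the pair above. LRP2 encodes megalin, an endocytic receptor of absorptive epithelia. H3K27me3 covered its start in TKO (5.04 kb, percentile 44.1), WT (4.502 kb, percentile 40.5) and D1240A (4.64 kb at chr2:169360437-169365080, percentile 5.99). In F1295A no H3K27me3 lay on the gene or within 10 kb of it. H3K4me3 covered the same start in WT (3.66 kb, percentile 18.4) and F1295A (3.97 kb at chr2:169361540-169365511, percentile 18.96), with the nearest 210.2 kb away in TKO and D1240A. WT was thus the 1 form with both marks on the LRP2 start.

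IMPDH1, an enzyme of guanine nucleotide synthesis, had H3K27me3 over its start of 13.8 kb in TKO, 4.56 kb in WT and 4.49 kb in D1240A, where the peak was at percentile 1.83. Inside the gene lay an H3K4me3 peak in all 4 forms, with its summit 4.20 to 4.28 kb from the start. It was 1.86 kb wide in TKO and 3.67 kb in D1240A, and stopped 3.72 kb and 2.89 kb short of the start. In WT it was 7.57 kb wide and in F1295A 7.805 kb, percentile 78.1, and reached past the start. The difference at IMPDH1 was therefore how far an H3K4me3 peak of all 4 forms extended, together with H3K27me3, which was 18 kb away in F1295A.

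CCDC136, a coiled-coil gene, held its marks at opposite ends. H3K27me3 lay over the far end in TKO (24.5 kb, percentile 85.9), WT (11.3 kb, percentile 34.9) and D1240A (7.22 kb at chr7:128818565-128825788, percentile 43.1), and 25.3 kb away in F1295A. H3K4me3 lay over the start in WT (2.52 kb, percentile 0.0983) and F1295A (2.88 kb at chr7:128789602-128792480, percentile 14.7), and 40.03 kb away in TKO and 39.8 kb in D1240A. The WT peak was among the weakest of its list. PRDM12 encodes a transcription factor of pain-sensing neurons. Its start lay under H3K27me3 of 7.79 kb in TKO, 7.88 kb in WT and 8.03 kb in D1240A, percentiles 39.4, 59.1 and 15.4, with the nearest 104 kb away in F1295A. The H3K4me3 peak was not at that start but near the far end, 2.097 kb wide in WT and 2.12 kb in F1295A, percentiles 3.35 and 9.08.

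EXTL1 encodes an exostosin-like glycosyltransferase and had the widest H3K27me3 of the set. The WT peak spanned 55.04 kb at chr1:26019661-26074698, percentile 93.8, and covered the whole gene. The leading peak was 19.8 kb in TKO and 9.85 kb at chr1:26026636-26036485 in D1240A, percentiles 93.2 and 69.9, and both lay over the far end. In F1295A H3K27me3 began 9.69 kb beyond that end, and an H3K4me3 peak of 3.997 kb at chr1:26033371-26037367, percentile 4.05, lay over it, shared with SLC30A2. H3K4me3 in the other forms was at least 73.2 kb away. Of the 6 genes, the call peaks overlapped in LRP2, IMPDH1 and EXTL1, by 3.54, 4.46 and 3.12 kb, and lay at different ends in CCDC136, PRDM12 and PSCA.

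The D1240A and F1295A calls also moved with the setting. At equal peak numbers 2 genes were called, CCDC136 and LRP2, and with the stronger 50% of each list 2 genes were called, neither of them among the 6 and 1 of the 2 in reverse, with H3K27me3 in F1295A. With no peak of either missing mark within 10 kb there were 4 genes, among them CCDC136, LRP2 and PSCA. Among 96 genes with H3K27me3 in D1240A and not F1295A and no H3K4me3 in D1240A, 7 (7.29%) had H3K4me3 in F1295A, against 25 of 830 (3.01%) that kept H3K27me3 and 584 of 10575 (5.52%) that had it in neither.

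Opposite marks between D1240A and WT were found at 2 genes, 0.0100% of all, with 0 genes (0.00%) in reverse. Among all genes, 866 (4.34%) had H3K27me3 in WT and not D1240A, and 57 (0.285%) had H3K4me3 in D1240A and not WT. The described one was NPAS1, which encodes a bHLH-PAS transcription factor of neurons. H3K27me3 covered its start in TKO, 11.8 kb at percentile 72.4, and in WT, 14.6 kb at chr19:47018523-47033138 and percentile 80.1. In D1240A and F1295A H3K27me3 was still there, 7.36 kb and 9.76 kb wide, but began 4.29 kb and 4.302 kb inside the gene. The H3K4me3 peak belonged to the region beyond the far end, next to TMEM160, in all 4 forms. It began 1.45 kb from NPAS1 in TKO, 1.46 kb in WT and 1.15 kb in F1295A, with widths of 2.56 kb, 2.77 kb and 3.25 kb. In D1240A it was 5.23 kb wide at chr19:47045162-47050392, percentile 46.2 of total and 9.95 of mean signal, and reached the gene end. The highest signal stayed 28.5 to 28.6 kb from the NPAS1 start in all 4 lists. At equal peak numbers the pair gave 4 genes, NPAS1 and LRP2 among them. LRP2 was the 1 of the 4 in reverse, with H3K27me3 in D1240A and H3K4me3 in WT. Its WT H3K27me3 peak, at rank 2257, was outside the 2083 peaks kept. NPAS1 was not called with the start site end alone, at a window of 2.5 kb, with no peak of either missing mark within 10 kb, or with the stronger 50% of each list. Of 693 genes with H3K27me3 in WT and not D1240A and no H3K4me3 in WT, 2 (0.289%) had H3K4me3 in D1240A, against 6 of 900 (0.667%) that kept H3K27me3 and 48 of 9648 (0.498%) that had it in neither.

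The TKO lists took no part in the choice of the genes. H3K27me3 was present in TKO at 15 of the 30, or 50% (Clopper-Pearson 95% interval 31.3 to 68.7), against 10.0% of all genes. These were EXTL1, LRP2, IMPDH1, CCDC136, PSCA, SCRT1, WASHC1, PRDM12, GPSM1, FADS3, BCL7C, WDR81, NPAS1, LHB and SAXO3, and their percentiles in the TKO list ran from 19.5 at SCRT1 to 93.2 at EXTL1. Among the other 767 genes with H3K27me3 in WT and not F1295A the TKO share was 62.6% (59.0 to 66.0). H3K4me3 was present in TKO at 0 of the 30 (interval up to 11.6%), against 39.9% of all genes and 16.8% (14.2 to 19.7) of the 767. The choice required H3K4me3 to be absent from WT or D1240A at each of the 30, whereas 154 of the 767 had it in WT. The 0 in TKO is therefore not independent of the choice. For 9 members a TKO H3K4me3 peak lay 1 to 10 kb away, and a window of 2.5 kb counted 3 of the 30. The shares of other genes at these distances were not counted. The TKO H3K27me3 list was the longest of the 4, with 5881 peaks, and its H3K4me3 list the shortest, with 7396.

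Since the 25 genes of the WT and F1295A pair lack H3K4me3 in WT by choice, they were also set beside the other 614 genes with H3K27me3 in WT and not F1295A that lack it. TKO carried H3K27me3 at 10 of the 25, 40% (21.1 to 61.3), and at 407 of the 614, 66.3% (62.4 to 70.0). TKO carried H3K4me3 at 0 of the 25 and at 5 of the 614, 0.814%. D1240A carried H3K27me3 at 2 of the 25, EXTL1 and PSCA, 8%, against 80 of the 614, 13.0%. D1240A carried neither mark at 23 of the 25, 92%, against 532 of the 614, 86.6%. The background shares with H3K27me3 were 9.57% in WT, 5.36% in D1240A and 5.79% in F1295A, and those with H3K4me3 were 43.6%, 41.6% and 44.5%. The intervals cover counting error only, and genes that share a peak are not independent. With an equal number of peaks in each list, TKO H3K27me3 was counted at 5 of the 30, and with the stronger 50% at 6. Both settings shorten the TKO list for every gene, and the shares of other genes were not counted at them. Whether the share in TKO differs from that of other genes was not tested.

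The promoter windows were a feature that the choice of genes did not use. The table held 24 of the 30, and UBA7, PFN3, PSCA, LY6E, SCRT1 and C11orf96 are the other 6. Median GC content was 71.5% in the 24 and 62.7% over 15813 genes. The observed over expected CpG ratio had a median of 0.764 in the 24 and 0.762 over all, and it exceeded 0.6 in 15 (62.5%) against 65.5% of all. The share was 49.9% at the other 1327 genes with H3K27me3 in WT and 88.5% at the other 7368 with H3K4me3 in F1295A. The members ran from 0.0725 at LSMEM2 to 1.042 at PRDM12, with SAXO3, CDHR4 and EXTL1 also at the low end and PAXX at the high end. For CDHR4, LHB, LSMEM2, WASHC1, ZNF358, FADS3, CCDC136 and C20orf204 the listed start lies inside the gene record, so the window is not the one at the record's end.

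The motif GGGCGG, searched on both strands and itself holding a CpG, was present in 19 of 24 windows (79.2%) against 58.3% of all, and TATAAA on both strands in 0 against 9.75%. AGGTCA on both strands was present in 4 (16.7%) against 11.8%. PAXX held 6 matches of GGGCGG, INKA1, IMPDH1 and NHERF2 4 each, LRP2 3 and LHB 1, and CYP26A1 held none. A match describes the letters only. Summits were measured from the start of the gene record, not from the listed start. The F1295A H3K4me3 summit lay within 1 kb of it in 13 of the 23 members with a known strand and this peak. The same share at other genes was not counted.

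**Figure D4:**
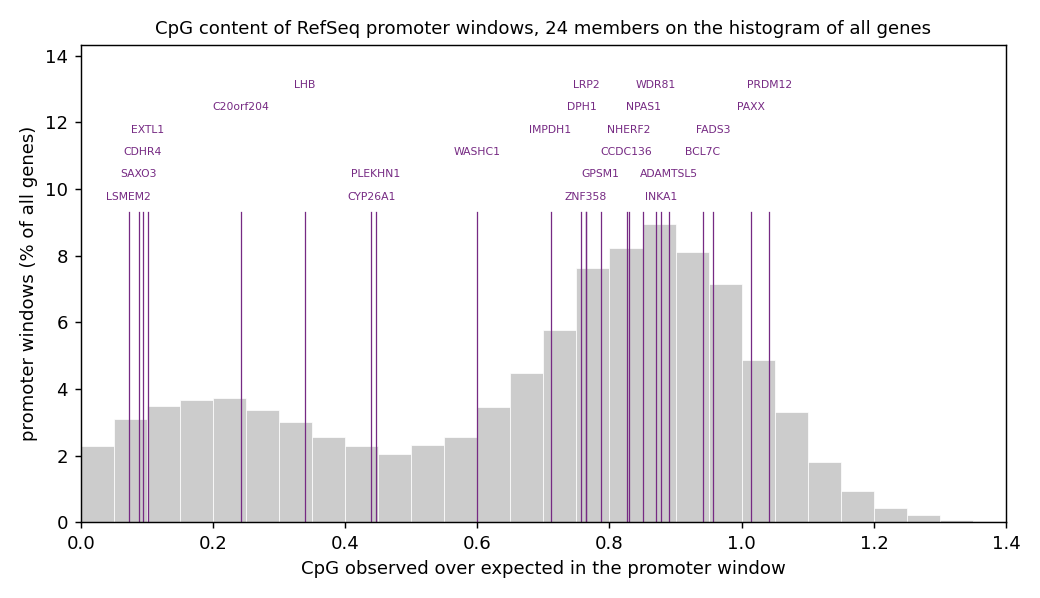
Observed over expected CpG ratio (horizontal axis) of the 300-base promoter windows of all 15813 genes (grey histogram, vertical axis in percent of genes) with a purple line and label for each of the 24 members in the table. The members fall on both sides of 0.6, with LSMEM2 at 0.0725 and PRDM12 at 1.042.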

How the data were processed

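ChIPmentation of H3K27me3 and H3K4me3 was analysed in TKO cells of 4 forms. The deposited data are 8 peak lists, in which the authors give each peak's total signal and highest signal (coverage) with any scaling not given in the sources used here. The submitters' processing notes name SEACR 1.3, Bowtie2 2.4.5, Trimmomatic 0.36 and FastQC 0.11.4, with GRCh38 as the build. How peaks were called (mode, threshold, control) and how the H3K27me3 replicates were combined was not stated. The IgG samples were not analysed here.

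Peaks within 1 kb of either end of 19974 RefSeq gene records (GRCh38.p14) were counted in Python 3.11.15 with numpy 2.4.6, pandas 2.3.3 and scipy 1.17.1, and drawn with matplotlib 3.10.9. The leading peak of a gene is the one of highest total signal, and its percentile is the share of its list at or below it. Strand came from the promoter table, for 24 members. Shares have Clopper-Pearson 95% intervals. No test between forms was run. The 1 kb call and the opposite call were tested on simulated peaks, planted at genes far from their neighbours. Shared peaks and the other steps were not tested in this way. The members, lists and settings were chosen with earlier results of these data known. All 30 members are accounted for. Full values were planned for up to 4 members per pair with the strongest pair of peaks and for those with no missing mark within 10 kb. Some distances of these members, such as those of WASHC1, LHB, SAXO3 and FADS3 in some lists, are not printed. Other genes are named only under a member's peak, at the limit of 1 kb, or as a check of the cell type. The alternatives changed the window, the peak width, the list length or strength, or the gene end.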

Additional observations from a re-analysis of the deposited data

How the results depend on the processing

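A count is said to have moved where it differed from the value reported by more than 1.5 times. Keeping only peaks at least 1 kb wide left every count unchanged. The narrowest leading peak at a member was 2.097 kb wide, so this setting could not alter the members' calls. For F1295A and WT, reported at 29 genes, the counts that moved were 6 at equal peak numbers, 15 with no missing mark within 10 kb, 14 with the start site end alone and 16 with the stronger 50% of each list. For D1240A and WT, reported at 2, they were 4 at equal peak numbers, with 1 of the 4 in reverse, 0 with no missing mark within 10 kb, 0 with the start site end alone, 1 with the stronger 50%, 5 at a window of 0.5 kb and 8 at 2.5 kb, with 1 of the 8 in reverse. For D1240A and F1295A, reported at 7, they were 2 at equal peak numbers, 4 with no missing mark within 10 kb, 3 with the start site end alone and 2 with the stronger 50%, with 1 of the 2 in reverse. With the start site end alone a gene without a known strand could not be called, and 15813 of the 19974 genes had one. Part of the lower counts there may be missing strands. Members with H3K27me3 in TKO, reported at 15, were 5 at equal peak numbers, 9 with the start site end alone, where 6 members have no strand, and 6 with the stronger 50%. Members with H3K4me3 in TKO, reported at 0, were 3 at a window of 2.5 kb. For both marks in TKO, the shares of other genes were not counted at these settings. An opposite call needs a mark to be absent from a list as well as present in another, so a shorter list can remove calls or add them, and the cause of each move was not tested. No paired analysis was possible because both H3K27me3 samples of a form share 1 list and H3K4me3 has 1 sample per form, and for the same reason no replicate could be left out. The promoter base composition had no alternative. Depth is unknown, so a peak missing from a list may be a peak too weak to be called there.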
